A study of Mus musculus with 48 samples.

Results

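The 29 genes described here encode lysosomal enzymes and lysosomal membrane proteins. They were taken by symbol from a list of lysosomal genes, with no cutoff on their measured values. The list was chosen with earlier results of these data known. All 29 were found among the 29221 genes of the joined read counts. All 29 also passed the filter on low counts in every comparison, so none was left out of a test. By role, 8 are proteases (Ctsa, Ctsb, Ctsd, Ctsk, Ctsl, Ctss, Ctsz and Tpp1), 5 handle lipid and cholesterol (Lipa, Npc1, Npc2, Asah1 and Psap), 7 are glycosidases (Gla, Glb1, Hexa, Gusb, Gaa, Man2b1 and Neu1), 2 are phosphatases (Acp2 and Acp5) and 7 are membrane proteins (Lamp1, Lamp2, Scarb2, Laptm5, Cd68, Atp6v0d2 and Mcoln1).

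RNA was sequenced from the whole livers of 48 adult mice, all of which carried a floxed PPARg (Pparg) allele. Males and females received a high fat diet (HF, D12492) for 34 weeks, or the HF diet for 18 weeks followed by 16 weeks of a diet rich in fat, cholesterol and fructose (HFCF, D16010101). Females also included groups on a low fat diet (LF, D12450J) for 34 weeks. After 16 weeks on diet the mice were given the virus AAV8-TBG-Cre, in which the hepatocyte promoter TBG drives Cre recombinase (labelled knockout), or AAV8-TBG-null (control), so every group carried a virus as well as the floxed allele. Each of the 4 male groups had 6 livers and each of the 6 female groups had 4. The labels give the LF livers as healthy, the HF livers as steatotic and the HFCF livers as having non-alcoholic steatohepatitis. They give each library as a sample of its own and do not say whether mice shared a cage or a litter.

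Lysosomes are acidic organelles in which enzymes cut proteins, glycans and lipids brought in from outside the cell or from within it. The vacuolar proton pump keeps them acidic, heavily glycosylated membrane proteins such as LAMP1 and LAMP2 line them, and cholesterol freed from lipoproteins by the acid lipase LIPA leaves them through NPC2 and NPC1. In liver, hepatocytes use lysosomes to break down lipid droplets and worn organelles, and macrophages, which engulf debris and lipoproteins, hold many of them. Many lysosomal genes share a short promoter element, CACGTG within a longer palindrome, that the transcription factors TFEB, TFE3 and MITF can bind.

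Libraries held 15338239 to 22072884 reads on genes. The summed level of 8 hepatocyte markers was high in every group, with means from 49700 to 110200 counts scaled per 1e6 reads (CPM), whereas adipocyte markers summed to no more than 0.134 CPM in any liver. The targeted gene Pparg did not fall with the label: group means went from 32.0 CPM in controls to 55.9 CPM in labelled knockouts in HFCF males (log2 fold change 0.81, adjusted p = 0.000805) and from 23.7 to 46.0 CPM in HFCF females (0.97, adjusted p = 0.0422, kept in 1 of 8 fits that left out 1 library), and its other 3 differences were not called. A read count over the whole gene cannot show whether the floxed part was lost, so the term labelled knockout is kept. Male HFCF control 1 stood apart with 650 CPM of summed macrophage markers against 1056 to 1362 in the other 5 livers of its group, and female HF labelled knockout 3 with 1052 CPM against 393 to 522 in the other 3. Mean correlation with the other livers of the same group was lowest in female HFCF labelled knockout 1 (0.9648) and female HF control 1 (0.9661). The main changes of the calls without these libraries are given beside the results or in the last section.

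Between genes, levels can be compared only per length, for which the authors' FPKM values were used (fragments scaled to gene length and library size). Psap, the precursor of the saposins that help enzymes degrade sphingolipids, was highest, with a mean of 312 FPKM over the 48 livers. Lamp1, a main glycoprotein of the lysosomal membrane, followed with 243 FPKM, and the cathepsin proteases Ctsz and Ctsb with 180 and 156 FPKM. The next members were the aspartic protease Ctsd with 112 FPKM and the acid lipase Lipa with 112 FPKM, whose single livers ran from 70.9 to 163 and from 68.4 to 148 FPKM, so that these neighbours overlapped throughout. The lowest were the proton pump subunit Atp6v0d2 at 3.66 FPKM, the alpha-galactosidase Gla at 2.32 FPKM and the collagen-cutting cathepsin Ctsk at 1.50 FPKM. The members thus spanned a wide range of levels, and the most abundant ones were not those that varied most between groups.

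**Figure D1:**
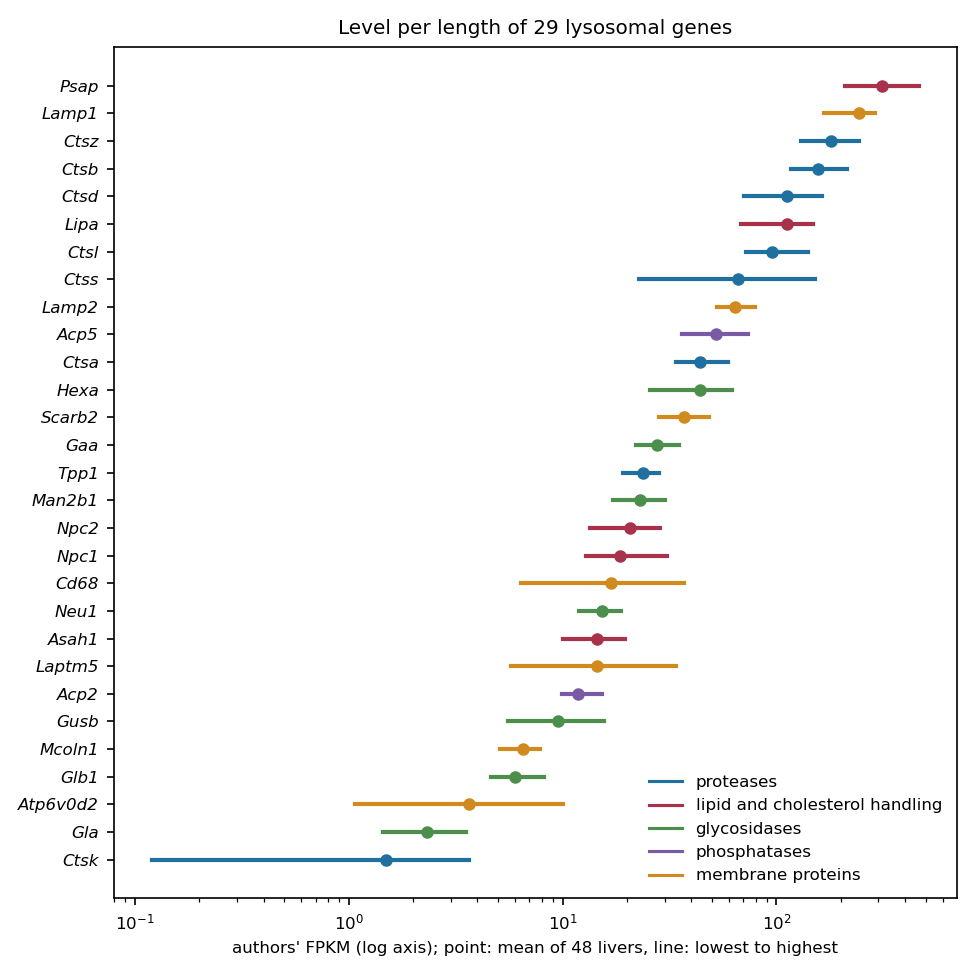
Level per length of each of the 29 lysosomal genes. Points give the mean FPKM over 48 livers on a log axis and lines run from the lowest to the highest liver, with Psap at 312 FPKM at the top and Ctsk at 1.50 FPKM at the bottom.

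The ratio of the highest to the lowest of the 10 group means, in CPM, was 4.42 for Atp6v0d2, 4.25 for Ctsk, 3.38 for Ctss, 3.20 for Laptm5 and 2.94 for Cd68. At the other end it was 1.23 for the peptidase Tpp1, 1.24 for the acid phosphatase Acp2 and 1.24 for the calcium channel Mcoln1. In 16 of the 29 genes the highest group mean lay in an HFCF group, and 12 of these were in HFCF control females. The share of all genes with their highest mean in an HFCF group was not counted. Together the 29 genes took a mean of 0.641% of reads in HF control males and 0.744% in HFCF control males. The corresponding shares were 0.590% and 0.786% in control females, and 0.560% in LF control females. These are shares of raw reads, without the library factors behind the CPM values, and were not tested. In CPM the summed level of the members rose less between these groups than the shares did.

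HFCF livers were set against HF livers within each sex and genotype. The labels steatohepatitis and steatosis follow the diets in every group, so diet and liver state cannot be told apart. Ctsd, Ctss, Psap and Cd68 were higher on the HFCF diet in all 4 comparisons. The share of all genes called higher in all 4 was not counted. In control males 8 of 29 members rose (Ctsb, Ctsd, Ctsk, Ctss, Psap, Laptm5, Cd68 and Atp6v0d2) and 2 fell (Npc1 and Neu1), where 22.3% of all 14475 genes tested were called, 13.0% higher and 9.31% lower. In labelled-knockout males 11 rose (Ctsd, Ctsk, Ctss, Lipa, Psap, Glb1, Gusb, Man2b1, Laptm5, Cd68 and Atp6v0d2) and 3 fell (Gaa, Lamp2 and Scarb2), against a background of 41.7% called among 14314 genes, 21.6% higher and 20.0% lower.

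In control females 9 members rose on the HFCF diet (Ctsb, Ctsd, Ctss, Lipa, Npc2, Psap, Gusb, Laptm5 and Cd68) and 1 fell (Lamp2), while 30.8% of 14701 genes were called, 16.9% higher and 13.8% lower. In labelled-knockout females 7 rose (Ctsd, Ctsk, Ctss, Lipa, Psap, Gusb and Cd68) and 1 fell (Npc1), while 14.5% of 14650 genes were called, 8.44% higher and 6.01% lower. The median log2 fold change of the members was 0.05 in control males, 0.17 in labelled-knockout males, 0.21 in control females and 0.13 in labelled-knockout females, beside medians of 0.01, −0.02, −0.02 and −0.01 over all genes tested. The members went in both directions, so these medians describe no common shift. Of the 29 genes, 18 (62.1%) were called in at least 1 of these 4 comparisons, and so were 54.8% of the 13968 genes tested in all 4, so that share is near the background.

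**Figure D2:**
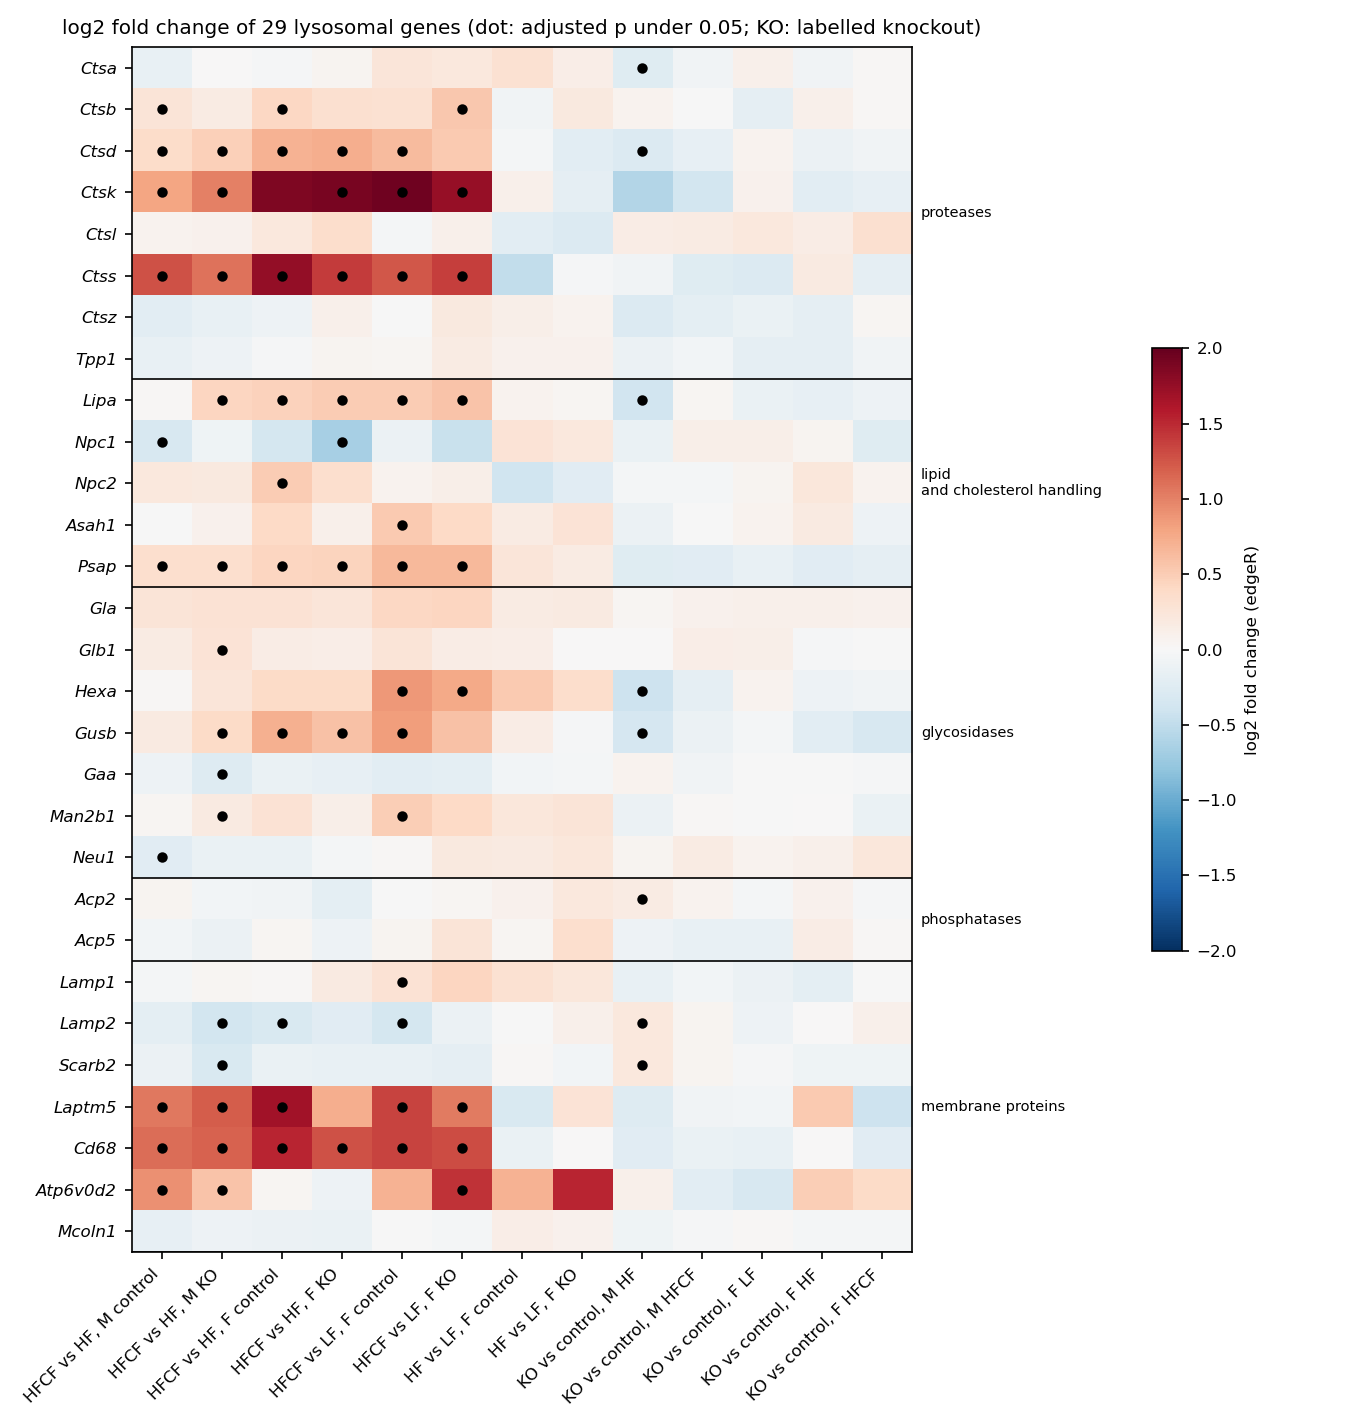
Heat map of log2 fold changes (colour) of the 29 lysosomal genes (rows, by role) in 13 pairwise comparisons (columns); a dot marks an adjusted p under 0.05. The rows of Ctss, Psap and Cd68 carry a dot in each of the 6 comparisons of the HFCF diet with another diet. The share of all genes called in all 6 was not counted.

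Among the proteases, the cysteine cathepsin Ctss (ENSMUSG00000038642, chr3:95526786-95556403), which trims the invariant chain in antigen-presenting cells, showed the greatest rise in control males. Its lowest, median and highest values there were 42.5, 60.2 and 76.6 CPM on the HF diet and 59.2, 149 and 193 CPM on the HFCF diet. On the HFCF diet 5 of 6 livers lay above every HF liver, and the exception was male HFCF control 1. The log2 fold change was 1.28 (SE 0.218, adjusted p = 0.00181). In labelled-knockout males Ctss ran from 41.0 to 70.4 CPM (median 57.6) on the HF diet and from 102 to 142 CPM (median 120) on the HFCF diet, with no overlap (log2 fold change 1.09, SE 0.127, adjusted p = 1.25e-05).

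In control females the 4 HF livers had 70.8, 33.3, 50.3 and 31.2 CPM of Ctss and the 4 HFCF livers 157, 206, 119 and 146 CPM. In labelled-knockout females the values were 46.2, 38.4, 89.6 and 34.5 CPM on the HF diet and 113, 151, 126 and 158 CPM on the HFCF diet. Neither pair of groups overlapped, although female HF labelled knockout 3, with 89.6 CPM, was well above the other 3 livers of its group. The log2 fold changes were 1.76 (SE 0.271, adjusted p = 0.00546) and 1.39 (SE 0.283, adjusted p = 0.0118).

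Ctsd (ENSMUSG00000007891, chr7:142375911-142388038), an aspartic protease found in the lysosomes of nearly all cells, rose less but more evenly. In control males it ran from 230 to 285 CPM (median 258) on the HF diet and from 298 to 362 CPM (median 325) on the HFCF diet, and in labelled-knockout males from 183 to 234 CPM (median 217) and from 256 to 341 CPM (median 285). In neither male comparison did the groups overlap (log2 fold changes 0.37, adjusted p = 0.00333, and 0.47, adjusted p = 0.000417). In control females the HF livers held 275, 185, 214 and 192 CPM and the HFCF livers 355, 383, 327 and 331 CPM, again without overlap (0.70, SE 0.133, adjusted p = 0.00781). In labelled-knockout females 168, 214, 212 and 200 CPM stood against 372, 329, 283 and 326 CPM (0.72, SE 0.122, adjusted p = 0.00593), so that the lowest HFCF liver again lay above the highest HF liver. Ctsd kept its call in every fit that left out 1 library, in each of these 4 comparisons.

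Ctsk (ENSMUSG00000028111, chr3:95499256-95509362), best known as the collagen-degrading protease of osteoclasts, had only 3 to 109 reads per library, so its values are imprecise. In control males its median was 2.14 CPM (1.79 to 3.09) on the HF diet and 4.13 CPM (1.41 to 5.17) on the HFCF diet, with overlap. In labelled-knockout females the HF livers had 0.592, 1.25, 1.08 and 0.773 CPM and the HFCF livers 1.77, 3.93, 3.96 and 4.07 CPM, with no overlap (log2 fold change 1.90, SE 0.358, adjusted p = 0.00876). In control females the HF livers had 3.17, 0.310, 0.560 and 0.184 CPM and the HFCF livers 3.70, 5.51, 3.35 and 3.15 CPM, and the log2 fold change of 1.87 was not called (adjusted p = 0.0630). Female HF control 1, the liver with 3.17 CPM, was the one whose value met those of the HFCF group. Without it the log2 fold change of Ctsk was 3.47 (adjusted p = 0.000179), and the DESeq2 Wald test called Ctsk with all livers (adjusted p = 0.0234). The same omission raised the count of called members in control females from 10 to 15, adding Ctsk, Asah1, Hexa and Man2b1 above and Npc1 below. How many of all genes were called without that liver was not counted. The male calls had log2 fold changes of 0.79 in controls (adjusted p = 0.0364) and 1.0 in labelled knockouts (adjusted p = 0.00646), and the former was kept in only 3 of 12 fits that left out 1 library.

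Ctsb, an abundant cysteine cathepsin, rose in controls of both sexes, with group means of 839 and 987 CPM in males (log2 fold change 0.26, adjusted p = 0.0273) and 871 and 1158 CPM in females (0.42, adjusted p = 0.0134). The male call was kept in 5 of 12 fits that left out 1 library. Ctsb shares 774 bases with Fdft1 on the other strand, and because the libraries did not record strand, reads there could belong to either gene. The remaining proteases Ctsa, Ctsl, Ctsz and Tpp1 were not called by edgeR in any of these 4 comparisons. The DESeq2 Wald test called Ctsl in labelled-knockout females (0.36, adjusted p = 0.00215) and Tpp1 in control males (−0.15, adjusted p = 0.0151).

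**Figure D3:**
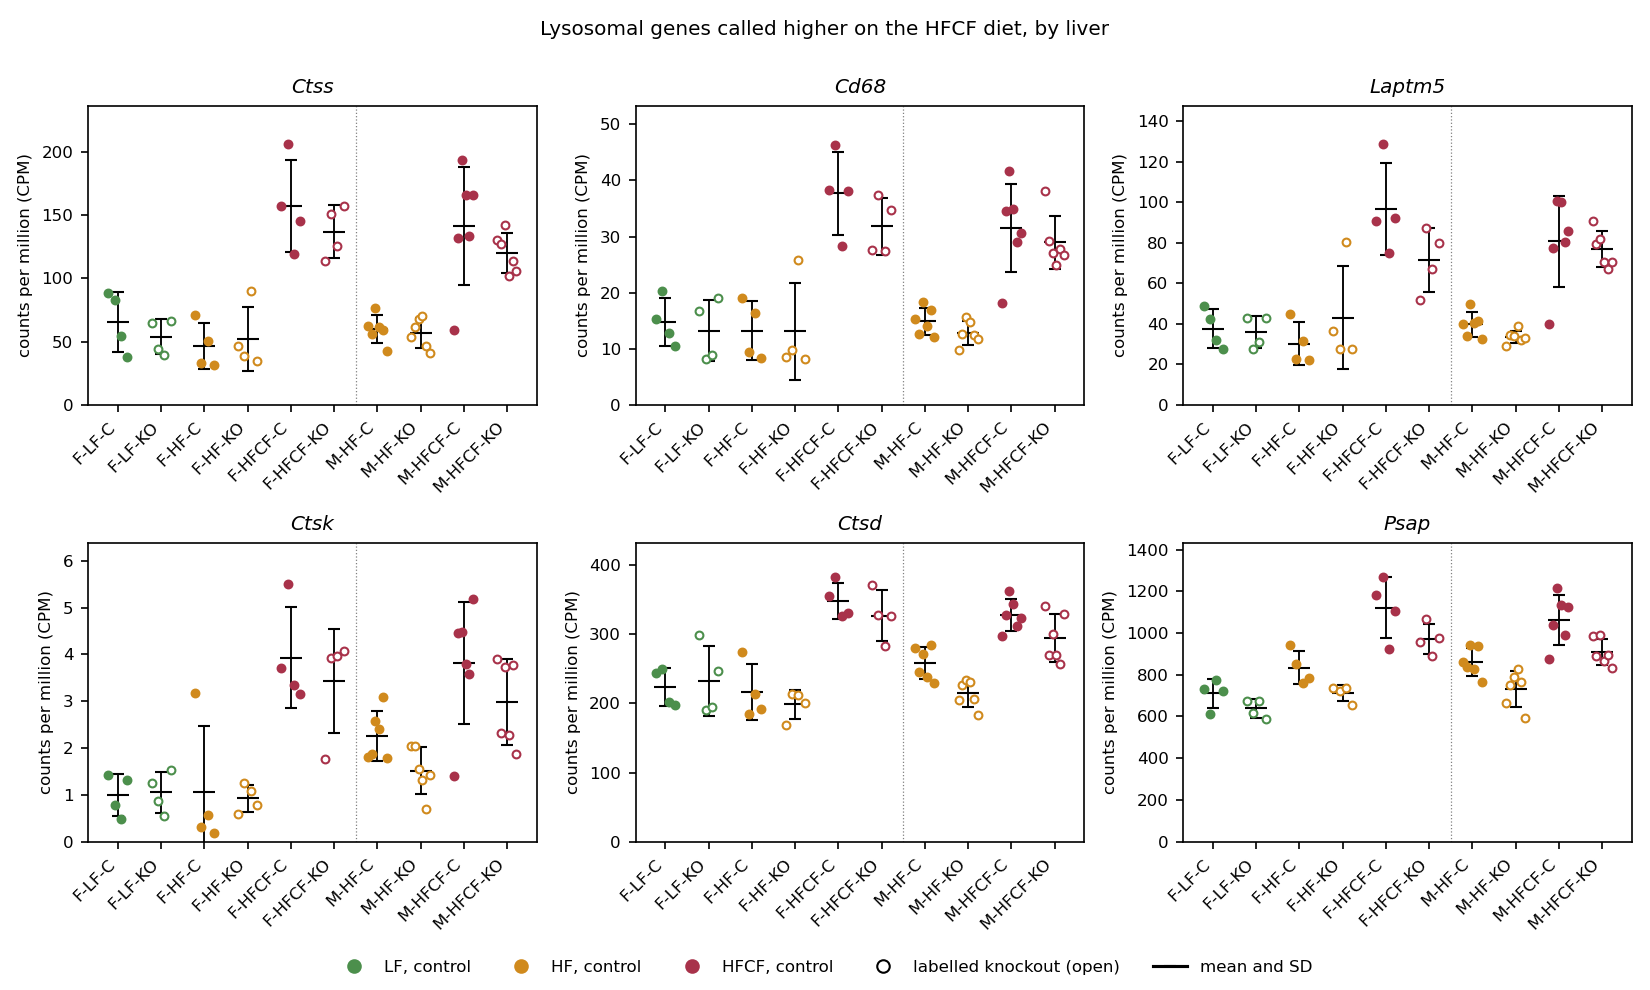
CPM of Ctss, Cd68, Laptm5, Ctsk, Ctsd and Psap in each liver (points) of the 10 groups, with the mean and SD of each group. The HFCF groups, such as HFCF control females with 119 to 206 CPM of Ctss, sit above the HF groups, with single livers such as male HFCF control 1 (59.2 CPM) among the HF values; the lower SD bar of Ctsk in HF control females runs below the axis.

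Among the membrane proteins, Cd68 (ENSMUSG00000018774, chr11:69664213-69666153), a heavily glycosylated lysosomal protein used as a macrophage marker, had 12.1, 14.7 and 18.3 CPM as its lowest, median and highest values in HF control males. In HFCF control males these were 18.2, 32.6 and 41.7 CPM, and only male HFCF control 1 fell within the HF range (log2 fold change 1.11, SE 0.164, adjusted p = 0.00106). In labelled-knockout males the range was 9.81 to 15.6 CPM (median 12.5) on the HF diet and 24.9 to 38.1 CPM (median 27.5) on the HFCF diet, with no overlap (1.19, adjusted p = 4.33e-06). In control females 19.0, 9.35, 16.3 and 8.27 CPM stood against 38.3, 46.4, 28.3 and 38.1 CPM, also without overlap (1.52, SE 0.266, adjusted p = 0.00627).

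In labelled-knockout females the HF livers had 8.50, 9.74, 25.9 and 8.16 CPM of Cd68 and the HFCF livers 27.7, 37.4, 27.4 and 34.8 CPM. The groups did not overlap, but the HF liver with 25.9 CPM, labelled knockout 3, came close to the HFCF livers. The log2 fold change was 1.27 (SE 0.350, adjusted p = 0.0371), and the call was kept in only 2 of 8 fits that left out 1 library.

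Laptm5 (ENSMUSG00000028581, chr4:130913125-130936141), a lysosomal protein of blood cells that lowers antigen receptor levels, moved much like Cd68. In control males its median was 40.2 CPM (32.6 to 49.9) on the HF diet and 83.0 CPM (39.8 to 101) on the HFCF diet, and in labelled-knockout males 33.4 CPM (29.1 to 38.7) and 74.9 CPM (67.3 to 90.9). The log2 fold changes were 1.05 (adjusted p = 0.00183) and 1.21 (adjusted p = 3.40e-07), and only the control groups overlapped. In control females 44.9, 22.5, 31.4 and 21.9 CPM stood against 90.6, 129, 74.9 and 92.2 CPM (1.68, SE 0.248, adjusted p = 0.00546), without overlap. In labelled-knockout females 36.5, 27.4, 80.6 and 27.4 CPM stood against 51.6, 87.2, 67.2 and 80.1 CPM, and the log2 fold change of 0.73 was not called (adjusted p = 0.173). There the HF liver with 80.6 CPM, again labelled knockout 3, lay inside the HFCF range. Without that liver the log2 fold changes in labelled-knockout females were 1.24 for Laptm5 (adjusted p = 0.00453), 1.86 for Cd68 (adjusted p = 0.00103) and 1.80 for Ctss (adjusted p = 0.00103). The same fit called 10 members in place of 8: it gained Laptm5, Hexa (0.47, adjusted p = 0.0173) and Npc2 (0.38, adjusted p = 0.0369) and lost Lipa. Its share of all genes called was not counted.

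Atp6v0d2 (ENSMUSG00000028238, chr4:19876841-19922605), a subunit of the proton pump known from osteoclasts and macrophages, was called in males and not in females. In control males its lowest, median and highest values were 3.39, 4.40 and 5.53 CPM on the HF diet and 5.65, 7.94 and 12.2 CPM on the HFCF diet, with no overlap (log2 fold change 0.91, SE 0.183, adjusted p = 0.00363). In labelled-knockout males the groups overlapped, with 2.92 to 7.72 CPM and 5.62 to 9.39 CPM (0.58, adjusted p = 0.0336, kept in 7 of 12 fits that left out 1 library). In females the HF livers were already at 11.9, 14.9, 12.5 and 17.4 CPM in controls, beside 13.8, 13.1, 16.3 and 14.8 CPM on the HFCF diet. The means of the HF females, 14.2 CPM in controls and 19.8 CPM in labelled knockouts, were thus above those of all 4 male groups, a difference between sexes that was not tested. The test of whether the diet difference itself differed between control males and females was not past the threshold for Atp6v0d2.

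Lamp2, the lysosomal membrane protein needed for fusion with autophagosomes, was the one member of the role group that fell in both sexes. Control females went from 600, 693, 635 and 715 CPM to 545, 520, 548 and 512 CPM (log2 fold change −0.30, adjusted p = 0.0258), and labelled-knockout males from a median of 743 CPM (662 to 772) to 572 CPM (531 to 587; −0.36, SE 0.0564, adjusted p = 0.000139). Neither pair overlapped, although the female call was kept in only 2 of 8 fits that left out 1 library. Scarb2, the receptor that carries beta-glucocerebrosidase to lysosomes, fell in labelled-knockout males from a median of 293 to 226 CPM (−0.30, adjusted p = 0.00236). Lamp1 and Mcoln1 were not called in any of these 4 comparisons.

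Of the members that handle lipid, Psap (ENSMUSG00000004207, chr10:60277627-60302597) rose in all 4 comparisons. Its median went from 849 CPM (764 to 944) to 1083 CPM (874 to 1214) in control males and from 758 CPM (591 to 826) to 891 CPM (832 to 988) in labelled-knockout males, with log2 fold changes of 0.33 (adjusted p = 0.0156) and 0.33 (adjusted p = 0.00527). The control groups overlapped through male HFCF control 1 and the labelled-knockout groups did not. In control females 941, 851, 762 and 783 CPM stood against 1182, 1269, 925 and 1107 CPM (0.44, adjusted p = 0.0255), and in labelled-knockout females 735, 724, 736 and 657 CPM against 955, 1067, 890 and 977 CPM (0.45, adjusted p = 0.0274). Of these, the control groups overlapped between 925 and 941 CPM and the labelled-knockout groups did not. Each female call was kept in 2 of 8 fits that left out 1 library.

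Lipa (ENSMUSG00000024781, chr19:34492318-34527474), which hydrolyses cholesteryl esters and triglycerides in lysosomes, rose in 3 of the 4 comparisons. In control males its median was 386 CPM (348 to 400) on the HF diet and 380 CPM (335 to 420) on the HFCF diet, which overlapped almost entirely (log2 fold change 0.03, adjusted p = 0.780). In labelled-knockout males it was 293 CPM (254 to 323) and 392 CPM (347 to 438), with no overlap (0.43, SE 0.0775, adjusted p = 0.000420). In control females 393, 229, 284 and 260 CPM stood against 416, 418, 368 and 403 CPM (0.47, adjusted p = 0.0482, kept in 2 of 8 fits that left out 1 library). In labelled-knockout females 249, 304, 205 and 283 CPM stood against 317, 428, 342 and 392 CPM (0.52, adjusted p = 0.0456, kept in 1 of 8). Female HF control 1, at 393 CPM, lay inside the HFCF range of the controls, and the labelled-knockout groups did not overlap.

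Npc1, the membrane protein that exports cholesterol from lysosomes, went the other way. In control males its median fell from 191 CPM (182 to 230) on the HF diet to 153 CPM (145 to 180.0) on the HFCF diet, without overlap (log2 fold change −0.32, SE 0.0714, adjusted p = 0.00657). In labelled-knockout females 257, 267, 226 and 336 CPM stood against 153, 192, 185 and 149 CPM, also without overlap (−0.67, SE 0.144, adjusted p = 0.0152). Npc2, its soluble partner, was called in control females, where it rose from a mean of 95.3 to 135 CPM (0.51, adjusted p = 0.0251), and this call was kept in 3 of 8 fits that left out 1 library. Asah1, the acid ceramidase, was not called by edgeR in any of the 4 comparisons with all livers.

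Among the glycosidases Gusb, the beta-glucuronidase, rose in 3 comparisons. Its group means went from 38.3 to 49.4 CPM in labelled-knockout males (log2 fold change 0.39, adjusted p = 0.00698), from 36.1 to 59.1 CPM in control females (0.72, adjusted p = 0.0169) and from 31.2 to 46.6 CPM in labelled-knockout females (0.59, adjusted p = 0.0294, kept in 2 of 8 fits that left out 1 library). The groups overlapped in both female genotypes and not in males, and in control females the highest HF liver, control 1, reached 48.5 CPM. In labelled-knockout males Glb1, the beta-galactosidase (0.27, adjusted p = 0.0103), and Man2b1, the alpha-mannosidase (0.18, adjusted p = 0.0458, kept in 4 of 12), also rose, while Gaa, the acid alpha-glucosidase that breaks down glycogen, fell (−0.26, adjusted p = 0.00220). Glb1 shares 6172 bases with Tmppe on the same strand, so reads there could belong to either gene. Tmppe held up to 121 reads in a library, against at least 239 for Glb1. In control males Neu1, the sialidase, fell from a median of 60.0 CPM (57.9 to 62.7) to 50.4 CPM (47.6 to 51.5), without overlap (−0.23, SE 0.0409, adjusted p = 0.00207). Hexa, Gla and both phosphatases Acp2 and Acp5 were not called by edgeR in any of these 4 comparisons with all livers. The DESeq2 Wald test called Hexa in labelled-knockout females (0.38, adjusted p = 0.0168).

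**Figure D4:**
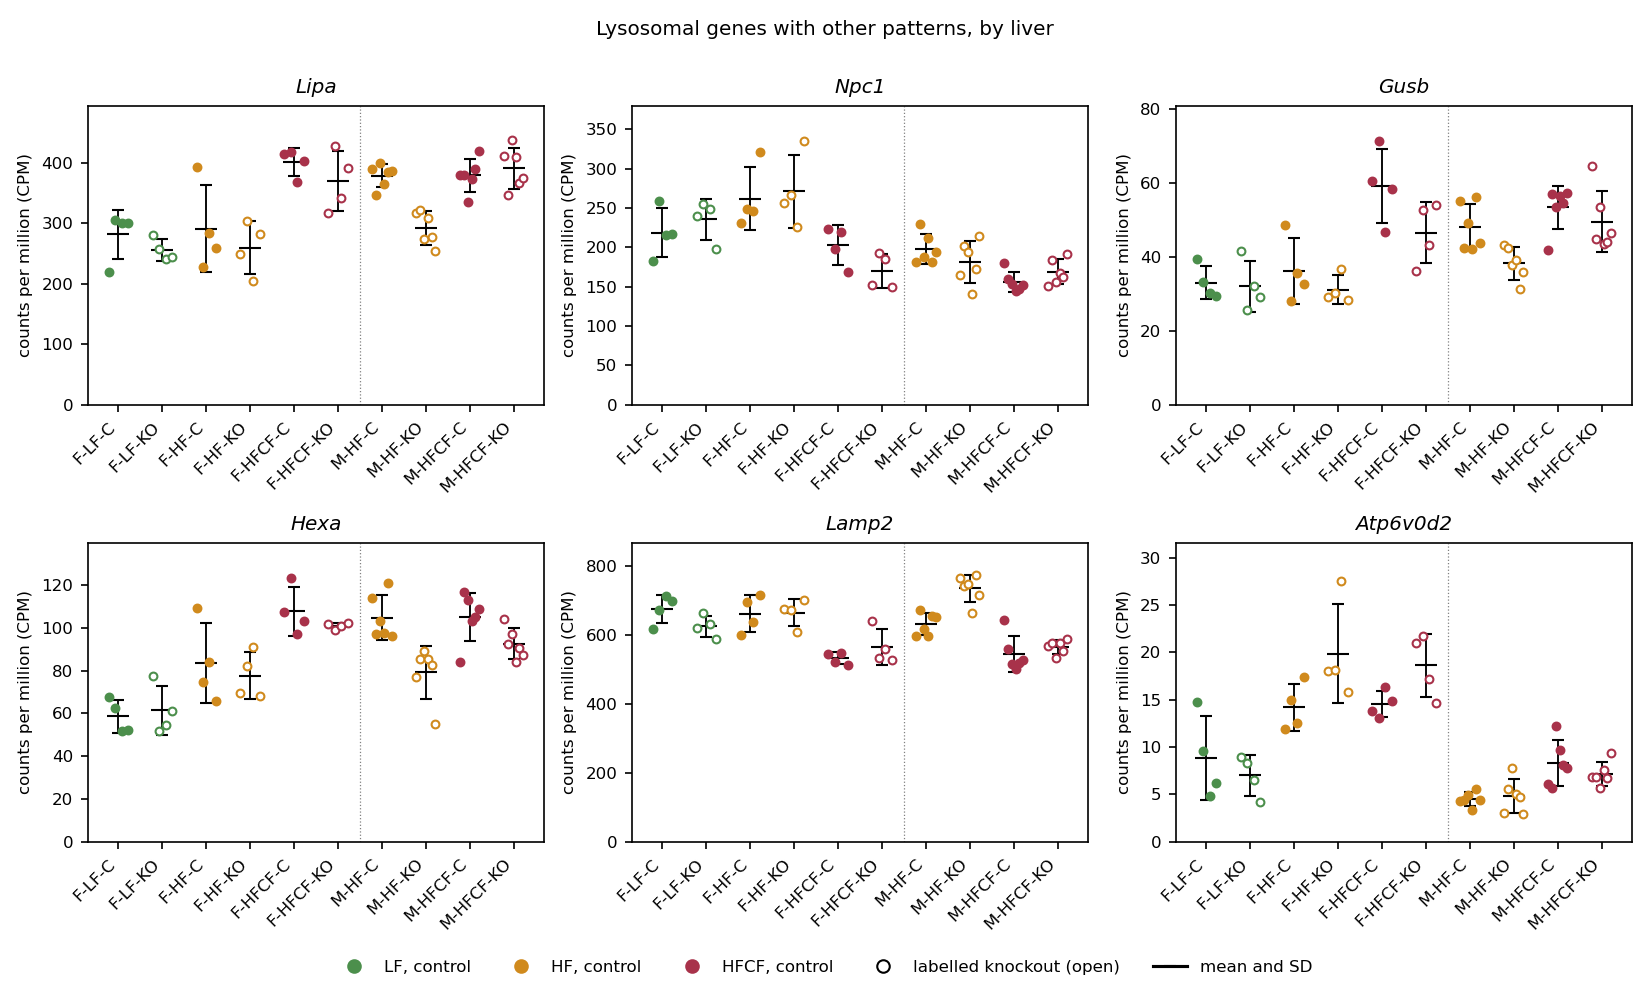
CPM of Lipa, Npc1, Gusb, Hexa, Lamp2 and Atp6v0d2 in each liver (points) of the 10 groups, with the mean and SD of each group. Npc1 and Lamp2 are lower in the HFCF groups, and the HF labelled-knockout males have the lowest male values of Lipa, with a median of 293 CPM.

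Markers of other cell types moved with the diet. In whole liver, fewer cells of a type and less RNA per cell cannot be told apart. Of 12 macrophage and monocyte markers, none of them a member, all 12 were higher on the HFCF diet in control males, labelled-knockout males and control females, and 3 in labelled-knockout females. Their summed level went from 427 to 660 CPM in HF control males to 650 to 1362 CPM in HFCF control males, and from 328 to 627 CPM to 1259 to 1685 CPM in control females. Of 6 markers of lipid-associated macrophages, all 6 were higher in the same 3 comparisons and 4 in labelled-knockout females, and of 8 hepatocyte markers 4, 7, 5 and 1 were lower. All 4 cholangiocyte markers were higher in each of the 4 comparisons, and of 6 stellate cell markers 4, 5, 1 and 5 were higher. None of the defining macrophage markers was at 0 in any group. The part of these cell types in the member values was not tested.

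Set against the summed macrophage markers in the same liver, the members behaved in different ways. Ctss stood at 8.86% to 12.1% of the macrophage sum across the 10 group means, Cd68 at 2.13% to 2.79% and Laptm5 at 5.90% to 7.07%. The ratio of Ctsd to that sum fell from 44.9% in HF control males to 30.2% in HFCF control males and from 47.6% to 25.4% in control females, although Ctsd itself rose. For Lamp1 the ratio went from 131% to 67.2% and from 147% to 48.6%, and for Psap from 150% to 96.8% and from 189% to 81.2%. Ctss, Cd68 and Laptm5 thus kept a narrow range of ratios to the macrophage markers over the groups, while the ratios of Ctsd, Psap and Lamp1 were lower on the HFCF diet. These ratios are descriptions over livers that differ in diet, with no test.

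**Figure D5:**
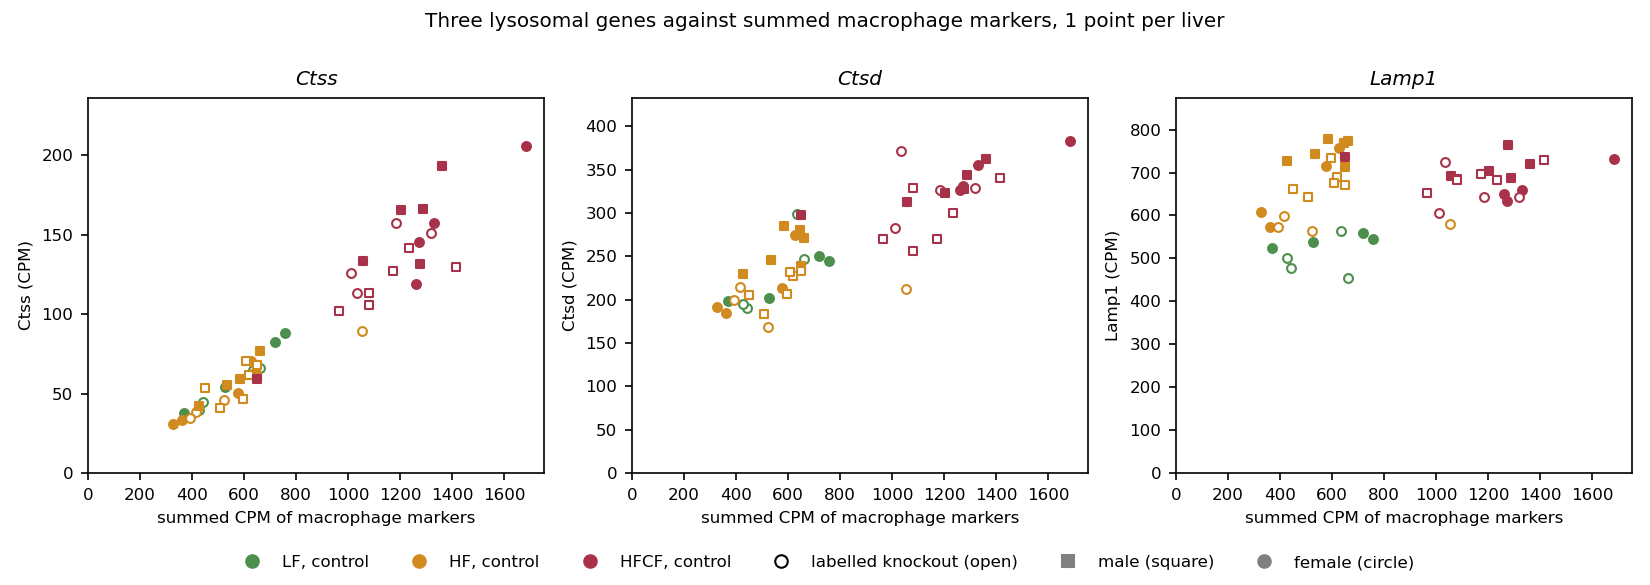
CPM of Ctss, Ctsd and Lamp1 (vertical axes) against the summed CPM of 12 macrophage and monocyte markers (horizontal axis), 1 point per liver in 10 groups. Over single livers Ctss climbs with the macrophage sum from 31.2 to 206 CPM, while Lamp1 runs from 454.3 to 778.5 CPM.

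Promoter letters of the members that moved were read from RefSeq (GRCm38.p6), in windows from 250 bases before to 50 bases after each gene's start. A window was found for 25 of the 29 members, and none was given for Ctsb, Npc1, Asah1 and Atp6v0d2. The letters searched, on both strands, were CACGTG, the core bound by TFEB, TFE3 and MITF, and GAGGAAG, a core bound by PU.1, a transcription factor of macrophages. CACGTG was in 8 of 25 members (32.0%; Ctsa, Ctsd, Ctsl, Gaa, Gla, Glb1, Lamp1 and Mcoln1) and in 8.09% of 27025 genes with such a window. The longer TCACGTGA, which contains CACGTG, was in 4 of 25 (16.0%; Ctsa, Ctsd, Gla and Mcoln1) and in 1.12% of all genes. GAGGAAG was in 7 of 25 (28.0%; Ctsk, Ctss, Gla, Gusb, Laptm5, Lipa and Man2b1) and in 15.36% of all genes. The 4 stretches printed first belong to members called on the HFCF diet in both sexes, and Lamp1, chosen after its values were seen, is a member with the CACGTG core that was not called there. Capitals mark a single match in each stretch, and for CACGTG also the letters next to it that extend the palindrome. Each stretch is written 5′ to 3′ on the strand of its gene. The Ctsd and Laptm5 stretches are short because they lie in an exon of a GENCODE transcript.
Ctsd: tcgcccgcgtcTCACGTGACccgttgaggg
Ctsk: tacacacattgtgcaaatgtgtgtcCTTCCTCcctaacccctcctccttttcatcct
Laptm5: gcagcctgtggCTTCCTCttttttgttc
Lipa: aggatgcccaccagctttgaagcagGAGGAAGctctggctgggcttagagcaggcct
Lamp1: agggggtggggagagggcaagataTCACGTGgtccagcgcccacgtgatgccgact

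The Ctsd stretch lies at chr7:142387908-142387937 on the minus strand, with the match starting at −98 from the start site, and the Ctsk stretch at chr3:95499126-95499182 on the plus strand, with the match at −59. The Laptm5 stretch is at chr4:130913266-130913293 on the plus strand (match at −39), the Lipa stretch at chr19:34527626-34527682 on the minus strand (match at −183) and the Lamp1 stretch at chr8:13159075-13159130 on the plus strand (match at −61). In Ctsk and Laptm5 the letters read CTTCCTC, which is GAGGAAG on the other strand. Further matches in these windows lay at −245 in Ctsd, at −233 in Ctsk and at −45, −28 and −15 in Lamp1. The Lamp1 match at −45 stands in lower case in the printed stretch. Ctss and Laptm5 had GAGGAAG and no CACGTG in their windows, Cd68 had neither, and Ctsd and Lamp1 had CACGTG and no GAGGAAG. A match of letters is a description and not a bound site.

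The HFCF diet was also compared with the LF diet in females, which sets livers labelled steatohepatitis against livers labelled healthy, again with diet and label changing together. These comparisons use the same HFCF livers as those above. In controls 12 members rose (Ctsd, Ctsk, Ctss, Lipa, Asah1, Psap, Hexa, Gusb, Man2b1, Lamp1, Laptm5 and Cd68) and Lamp2 fell, where 35.2% of 14755 genes were called, 18.4% higher and 16.8% lower. In labelled knockouts 9 rose (Ctsb, Ctsk, Ctss, Lipa, Psap, Hexa, Laptm5, Cd68 and Atp6v0d2) and 0 fell, where 12.0% of 14614 genes were called, 8.26% higher and 3.74% lower. The median log2 fold change of the members was 0.30 in controls and 0.40 in labelled knockouts, beside −0.02 and 0.01 over all genes.

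Hexa, the alpha subunit of beta-hexosaminidase, which degrades gangliosides, had the lowest adjusted p of the members in controls. The LF controls had 67.8, 62.3, 51.8 and 52.3 CPM and the HFCF controls 108, 124, 96.9 and 103 CPM (log2 fold change 0.87, SE 0.116, adjusted p = 0.000828). In labelled knockouts 77.6, 52.0, 54.7 and 61.1 CPM stood against 102, 98.8, 101 and 102 CPM (0.75, SE 0.136, adjusted p = 0.00656). Neither pair overlapped. The HF females lay between the LF and HFCF means, at 83.5 CPM in controls and 77.7 CPM in labelled knockouts.

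Cd68 rose from 15.4, 20.3, 12.9 and 10.5 CPM in LF controls (log2 fold change 1.35, adjusted p = 0.00138) and Laptm5 from 48.8, 42.3, 31.9 and 27.4 CPM (1.35, adjusted p = 0.00140), both to the HFCF values given above, without overlap. Ctsk went from 1.41, 0.785, 0.479 and 1.32 CPM in LF controls to between 3.15 and 5.51 CPM on the HFCF diet (1.95, SE 0.338, adjusted p = 0.00236). Gusb rose by 0.83 (adjusted p = 0.00190), Ctsd by 0.63 (adjusted p = 0.00285) and Psap by 0.65 (adjusted p = 0.00428) on the log2 scale. In control females Cd68, Laptm5, Gusb, Ctsd and Psap had been called higher against the HF diet too, and Ctsk had not.

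In controls Asah1, Man2b1 and Lamp1 were called against the LF diet and not against the HF diet, a contrast between comparisons that was not itself tested. For Asah1 and Man2b1 it rested on 1 liver and on the test: without female HF control 1 both were called against the HF diet (0.55, adjusted p = 0.00238, and 0.38, adjusted p = 0.00564), as they were with the DESeq2 Wald test (adjusted p = 0.0463 and 0.0397). Asah1 went from 40.9, 46.7, 40.1 and 36.8 CPM in LF controls to 62.7, 66.7, 54.0 and 55.4 CPM (log2 fold change 0.53, SE 0.0991, adjusted p = 0.00331), without overlap. Man2b1 rose by 0.49 (adjusted p = 0.00375) and Lamp1 by 0.30 (adjusted p = 0.0330) on the log2 scale, and the Lamp1 call was kept in 3 of 8 fits that left out 1 library. In labelled knockouts Atp6v0d2 went from 8.94, 8.35, 6.55 and 4.18 CPM on the LF diet to 21.0, 21.7, 17.1 and 14.7 CPM (1.44, SE 0.225, adjusted p = 0.00336), also without overlap. Of the 12 macrophage markers all 12 were higher in controls and 10 in labelled knockouts in these comparisons, and their part was not tested. The count in labelled knockouts rested on single libraries: it was 14 without female HFCF labelled knockout 1 and 5 (Ctss, Atp6v0d2, Hexa, Laptm5 and Cd68) without labelled knockout 2. Shares of all genes called were not counted in these fits.

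Between the HF and LF diets in females 0 of 29 members were called in either genotype with edgeR's quasi-likelihood test, where 0.696% of 14216 genes were called in controls (0.443% higher, 0.253% lower) and 0.155% of 14214 genes in labelled knockouts (0.0704% higher, 0.0844% lower). At an unadjusted p under 0.05 there were 6 members in controls and 5 in labelled knockouts. No share of all genes was counted at that threshold, here or below, so these counts have no background. The DESeq2 Wald test called 0 members in controls and 1 in labelled knockouts. The 1 was Atp6v0d2 in labelled knockouts, which went from the LF values above to 18.0, 18.2, 27.5 and 15.8 CPM on the HF diet. Every HF liver was above every LF liver (log2 fold change 1.52, adjusted p = 0.0514 with edgeR). It was also called with no filter on low counts and without female LF labelled knockout 1.

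Labelled knockouts were compared with controls within each diet. In HF males Lipa, Hexa, Gusb, Ctsd and Ctsa were lower in labelled knockouts and Lamp2, Acp2 and Scarb2 higher, so 3 of 29 members rose and 5 fell, where 18.5% of 14041 genes were called, 8.57% higher and 9.88% lower. The median log2 fold change of the members was −0.12 beside 0.00 over all genes. Lipa, with the values given above (control range 348 to 400 CPM, labelled knockout range 254 to 323 CPM), showed no overlap (−0.38, SE 0.0683, adjusted p = 0.00113). Hexa had 96.2, 100 and 121 CPM as its lowest, median and highest values in controls and 55.0, 83.9 and 89.3 CPM in labelled knockouts, also without overlap (−0.41, SE 0.101, adjusted p = 0.00984).

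Ctsd ran from 230 to 285 CPM in HF control males and from 183 to 234 CPM in labelled knockouts, so that the ranges overlapped only between 230 and 234 CPM (log2 fold change −0.28, adjusted p = 0.0175). Gusb went from a median of 46.4 to 38.5 CPM (−0.34, adjusted p = 0.0190) and Ctsa, the carboxypeptidase that protects Neu1 and Glb1, from 214 to 190 CPM (−0.24, adjusted p = 0.0434). Ctsa shares 1515 bases with Pltp on the other strand, which held up to 5779 reads in a library against at least 2444 for Ctsa, so the Ctsa values are uncertain. Lamp2 was higher, with a median of 743 CPM against 634 CPM (0.21, adjusted p = 0.0192), as were Acp2, an acid phosphatase (0.17, adjusted p = 0.0376), and Scarb2 (0.21, adjusted p = 0.0406). Acp2 shares 2527 bases with Ddb2 on the other strand, which held up to 173 reads in a library against at least 820 for Acp2. Calls of Ctsa, Acp2 and Scarb2 were kept in 5, 3 and 3 of 12 fits that left out 1 library, and without HF control 1 or 5 or HF labelled knockout 3 or 6 the count was 5 (Lamp2 higher, and Lipa, Hexa, Ctsd and Gusb lower).

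In these HF males 5 of 6 markers of lipid-associated macrophages were lower in labelled knockouts, with a mean sum of 202 CPM in controls and 113 CPM in labelled knockouts, while the sum of the 12 macrophage markers was 584 and 572 CPM and 1 of them was lower. Of 8 hepatocyte markers 6 were higher (mean sum 74720 and 99930 CPM), 4 of 6 stellate cell markers were lower and 3 of 3 red blood cell markers were higher. Their part in the member values was not tested. Ctss, Cd68 and Laptm5 were not called in this comparison.

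In HFCF males 0 members were called between labelled knockouts and controls with edgeR's quasi-likelihood test. By that test 2.21% of 14685 genes were called, 0.933% higher and 1.27% lower. The DESeq2 Wald test called 0 members. A further 6 had an unadjusted p under 0.05, with no share of all genes counted at that threshold. Without male HFCF control 1, the liver with few macrophage marker reads, 3 members were lower in labelled knockouts: Psap (−0.28, adjusted p = 0.0240), Hexa (−0.24, adjusted p = 0.0242) and Ctss (−0.40, adjusted p = 0.0339). Leaving out the same liver raised the count of the HFCF and HF diets in control males from 10 to 16, of which 11 were higher and 5 lower, with Npc2, Gusb and Gla added above and Lamp2, Gaa and Scarb2 below. In that fit the log2 fold changes were 1.44 for Ctss, 1.23 for Cd68, 1.20 for Laptm5, 0.96 for Ctsk and 0.38 for Psap. The share of all genes called was not counted in either fit without this liver.

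In females 0 members were called between labelled knockouts and controls on any diet, by edgeR's quasi-likelihood test or by the DESeq2 Wald test. At an unadjusted p under 0.05 there were 0 members on the LF diet, 3 on the HF diet and 2 on the HFCF diet. The share of all genes at that threshold was not counted. At the adjusted threshold 0% of 14285 genes were called on the LF diet and 0% of 14128 on the HF diet. On the HFCF diet 0.0534% of 14980 were called (0.00668% higher, 0.0467% lower). With 4 livers a group, the member medians were −0.02, 0.00 and −0.04 on the log2 scale.

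The differences between comparisons were tested as interactions. In males the diet difference depended on genotype for 1 of 29 members, Lipa, where 1.56% of 15096 genes were called, 0.987% with a positive and 0.57% with a negative interaction. The HFCF diet difference of Lipa was larger in labelled knockouts by 0.40 on the log2 scale (SE 0.0984, adjusted p = 0.0339), from means of 379 and 380 CPM in controls and of 293 and 391 CPM in labelled knockouts. The call was kept in 16 of 24 fits that left out 1 library. In females 0 members were called with edgeR, 0 at an unadjusted p under 0.05 and 0 with DESeq2, and 0% of 15445 genes were called.

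The diet difference did not pass the test of a difference between control males and females for any of the 29 members (edgeR 0, DESeq2 0). By edgeR 0.00646% of 15491 genes were called. There were 5 members at an unadjusted p under 0.05, a threshold at which all genes were not counted. Without female HF control 1, in which Ctsk was high, 7 members were called: Atp6v0d2 had the greater HFCF difference in males (0.96), and Lipa (−0.61, adjusted p = 0.00270), Ctsk (−2.67, adjusted p = 0.00425), Gusb, Ctsd, Hexa and Asah1 in females. The share of all genes called without that liver was not counted, so these 7 have no background to stand beside. The labelled-knockout difference on the HF diet did not pass the test of a difference between the sexes for any member (edgeR 0, DESeq2 0). By edgeR 0% of 15024 genes were called. There were 3 members at an unadjusted p under 0.05, again without a count over all genes.

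A list of 78 other genes tied to lysosomes, by role, included 9 for enzyme sorting and the 4 MiT/TFE transcription factors described below. On the HFCF against the HF diet 12 rose and 6 fell of 76 tested in control males, and 16 and 10 of 76 in labelled-knockout males. In females 15 rose and 6 fell of 76 in controls and 6 and 2 of 75 in labelled knockouts. The shares called, 23.7%, 34.2%, 27.6% and 10.7%, were near or below those over all genes, 22.3%, 41.7%, 30.8% and 14.5%. The asparagine endopeptidase Lgmn rose in all 4, with log2 fold changes of 0.75, 0.80, 1.26 and 0.997, as did the peptide transporter Slc15a3, with 1.15, 1.36, 1.91 and 1.16, although its last call was kept in only 2 of 8 fits that left out 1 library. Hgsnat, an enzyme of heparan sulfate breakdown, fell in all 4, by 0.28, 0.42, 0.48 and 0.52, the last kept in 5 of 8 such fits. The tetraspanin Cd63 rose in labelled knockouts, from a mean of 9.99 to 43.6 CPM in males (2.15) and from 8.09 to 53.5 CPM in females (2.72), and in HF males it was lower in labelled knockouts than in controls (33.4 CPM; −1.75). The sorting receptor Sort1 followed the same order in males, with a mean of 17.1 CPM in the controls and 9.81 CPM in the labelled knockouts on the HF diet (−0.81).

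Of the factors of the MiT/TFE family, Tfeb was not called in any comparison and stood at 11.8 to 15.2 CPM over the 10 group means. On the HFCF against the HF diet Mitf rose in control males (log2 fold change 0.50, adjusted p = 0.0359) and in labelled-knockout males (0.45, adjusted p = 0.0329), calls kept in 3 and 5 of 12 fits that left out 1 library. Tfec rose in labelled-knockout males (0.67, adjusted p = 0.00903, kept in 12 of 12) and, against the LF diet, in control females (0.90, adjusted p = 0.0286, kept in 5 of 8). Tfe3 rose in control females (0.30, adjusted p = 0.0234, kept in 2 of 8). Of the 29 members, 23 (79.3%) were called in at least 1 of 13 pairwise comparisons, where 63.6% of the 13431 genes tested in all 13 were. The 6 that edgeR did not call were the proteases Ctsl, Ctsz and Tpp1, the glycosidase Gla, the phosphatase Acp5 and the channel Mcoln1. Their log2 fold changes ran from −0.28 to 0.43. Ctsl and Tpp1 were each called by the DESeq2 Wald test on the HFCF against the HF diet, as given above. The members Ctsd, Lipa, Hexa, Gusb, Lamp2 and Scarb2 were called higher in some pairwise comparisons and lower in others.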

How the data were processed

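The authors deposited 11 tables, 1 per comparison, with raw read counts per gene, a normalised signal and FPKM for each library. STAR 2.6.1, HTSeq 0.6.1, DESeq2 and the builds GRCm38 and mm10 are named in the submitters' processing notes, without roles, and the libraries were not strand specific, per the labels' protocols. The authors' deposited counts were joined by gene identifier into 29221 genes by 48 libraries (0 of 1341082 repeated values differed), and 0 columns were left without a sample. The normalised signal deposited by the authors, a count divided by 1 factor per library, was not used. The authors' FPKM served only for levels between genes. Coordinates are those of the tables, equal to GENCODE M21 for 97.3% of genes found in both.

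CPM values, counts scaled to 1e6 reads, used TMM factors of edgeR 4.0.16 (R 4.3.3) over all libraries. Each pairwise comparison was fitted on its 2 groups, and each interaction on its 4, with filterByExpr, edgeR's quasi-likelihood test and Benjamini-Hochberg adjustment over all genes tested. A gene was called at an adjusted p under 0.05. The script was tested on simulated data. Where a log2 fold change stands with an adjusted p, both come from this fit. Values were to be given for up to 10 called members per comparison in order of adjusted p; the text goes by role and names every called member of the HFCF against HF comparisons. Of the other lysosomal genes up to 4 called per list and comparison were eligible by absolute log2 fold change. The members, their roles and all lists were chosen with earlier results of these data known. The alternatives were DESeq2 1.42.0 (its size factors, then its Wald test), dropping the count filter, a block for the replicate number, and leaving out each library. Shares of all genes called were counted for the edgeR fits with all libraries, and under none of these alternatives. They were counted at the adjusted threshold and not at an unadjusted p under 0.05. Same-numbered samples were different mice. Replicate libraries differed by more than sampling noise, with a chi-square per degree of freedom of at least 5.81.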

Additional observations from a re-analysis of the deposited data

Results flagged for a closer look

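In 19 of 290 sets of 1 member and 1 group, the lowest or highest liver stood apart from the rest by a gap test, where chance gives about 14.5 (1 in 20). Male HFCF control 1 gave 4 of them: Asah1 at 34.2 CPM and Gusb at 41.9 CPM were the lowest of their group, and Gaa at 147.5 CPM and Scarb2 at 240.4 CPM the highest. This was also the liver with the lowest summed macrophage markers of its group, 650 CPM. Female HF labelled knockout 3, the highest of its group in macrophage markers with 1052 CPM, was high in Ctsb with 1091 CPM and in Cd68 with 25.9 CPM. Female HFCF labelled knockout 1 was low in Ctsk with 1.77 CPM and in Asah1 with 43.4 CPM, and female HF control 1 was high in Ctsk with 3.17 CPM.

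The other livers that stood apart did so mostly in 1 gene. Among males, HF control 3 was high in Gla with 9.40 CPM, HF labelled knockout 6 was low in Hexa with 55.0 CPM, HF labelled knockout 4 was low in Scarb2 with 228.9 CPM and HFCF control 5 was low in Neu1 with 47.6 CPM. HFCF labelled knockout 1 was high in Man2b1 with 229.7 CPM and in Cd68 with 38.1 CPM. Among females, LF labelled knockout 3 was high in Tpp1 with 128.7 CPM, LF control 1 was low in Lipa with 220.4 CPM, HF labelled knockout 4 was low in Psap with 657 CPM and HF control 2 was low in Neu1 with 54.7 CPM.

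Lipa was the 1 member whose response to the HFCF diet differed between genotypes in males, by 0.40 on the log2 scale (adjusted p = 0.0339, edgeR's quasi-likelihood test on 4 groups of 6 livers).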

How the results depend on the processing

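No called member reversed its direction under any alternative. DESeq2 size factors and the Wald test each kept 73 of 73 member calls, and no filter on low counts 65. With the replicate number as a block, 46 calls were kept and 27 were lost. Over all fits that left out 1 library, calls were kept 595 times and lost 133 times. On the HFCF against the HF diet the Wald test also called Lamp2, Scarb2 and Tpp1 in control males. It added Asah1, Ctsk, Man2b1 and Npc1 in control females, and Ctsb, Ctsl, Hexa and Npc2 in labelled-knockout females. Smaller changes of the counts elsewhere are not listed. The Wald test gave 14 called members on the HFCF against the LF diet in labelled-knockout females, in place of 9, and 1 on the HF against the LF diet there, in place of 0. With no filter the latter was also 1, and the labelled knockouts of HF males had 5 in place of 8.

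Leaving out 1 library at a time gave 8 to 16 called members on the HFCF against the HF diet in control males, 12 to 15 in labelled-knockout males, 5 to 15 in control females and 3 to 12 in labelled-knockout females. In control females the count was 5 without HFCF control 2 and 6 without HF control 2 or 4 or HFCF control 1 or 5, and Ctss, Laptm5, Cd68, Ctsd and Ctsb were called in each of these fits. In labelled-knockout females it was 3 without HFCF labelled knockout 4 and 4 without HF labelled knockout 1, 2 or 4 or HFCF labelled knockout 2 or 3, and Ctsd, Ctsk and Ctss were called in each. It was 12 without HFCF labelled knockout 1, which added Ctsl, Hexa and Npc2 above and Lamp2 below. The HFCF against the LF diet gave 11 to 15 in controls and 5 to 14 in labelled knockouts, and the HF against the LF diet 0 to 0 and 0 to 1. Labelled knockouts against controls gave 5 to 11 in HF males, 0 to 3 in HFCF males and 0 to 0 on each diet in females. The interactions gave 0 to 2 for genotype by diet in males, 0 to 0 in females, 0 to 7 for sex by diet and 0 to 0 for sex by genotype. The male interaction was lost without HF control 1 or 3, HF labelled knockout 3 or 5, HFCF control 3 or HFCF labelled knockout 1, 3 or 4.

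The replicate number shared by the groups did not pair the livers: in no comparison did every pair of same-numbered libraries correlate over 0.1, and pairs ran from −0.229 to 0.34. With the replicate number as a block, 0 members were called on the HFCF against the HF diet in control females in place of 10, 5 in labelled-knockout females in place of 8, and 0 for the male interaction in place of 1. The other counts under the block were within 1.5 times of those reported.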
